A study of Mus musculus with 6 samples.

Results

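The transcripts of 34 mouse genes for lysosomal hydrolases, their activator proteins and lysosomal membrane proteins were followed in macrophages cultured with or without growth differentiation factor 11 (GDF11), a secreted ligand of the TGFβ family. The genes were taken from a fixed list, and each was read from the probe set paired with that gene symbol alone, the brightest over the 6 arrays where a gene had more than 1. All 34 were measured, out of 19938 genes with such a probe set. Bone marrow-derived macrophages (BMMs), cultured from the tibial marrow of 9-week-old mice, received M-CSF at 100 ng/ml and RANKL at 50 ng/ml in both groups, the factors that keep these cells alive and drive them towards osteoclasts. The control group had vehicle (3 arrays) and the GDF11 group had recombinant GDF11 at 100 ng/ml (3 arrays), each for 24 h. RNA was hybridised to Affymetrix whole-transcript arrays. The labels call the arrays of a group biological replicates and do not say that each came from a separate mouse, so the p-values measure only the spread between these arrays. In such bulk RNA, fewer cells of a type and less RNA per cell cannot be told apart.

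Lysosomes are acidic organelles in which soluble hydrolases take apart polysaccharides, glycoproteins, lipids and proteins. Most of these enzymes receive a mannose 6-phosphate tag in the Golgi and are carried to the lysosome by receptors that recognise it, and loss of a single enzyme causes a storage disease. Macrophages are rich in lysosomes, and osteoclasts release lysosomal enzymes onto bone through the ruffled border. Many lysosomal genes carry the sequence CACGTG (an E-box) close to their start, within a longer palindrome named the CLEAR element that TFEB and TFE3 bind.

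The upstream sequences of 3 genes that passed the test on the arrays are printed whole: *Gla*, which had the largest fall, *Lamp1*, which also fell, and *Arsb*, the only gene to rise. Each runs 5′ to 3′ on the strand of the gene, and covers the bases from 250 bases before to 50 bases after the annotated start, in RefSeq on GRCm38.p6. Capitals mark CACGTG and, where present, its longer form TCACGTGA.
Gla chrX:134600956-134601255 (minus strand): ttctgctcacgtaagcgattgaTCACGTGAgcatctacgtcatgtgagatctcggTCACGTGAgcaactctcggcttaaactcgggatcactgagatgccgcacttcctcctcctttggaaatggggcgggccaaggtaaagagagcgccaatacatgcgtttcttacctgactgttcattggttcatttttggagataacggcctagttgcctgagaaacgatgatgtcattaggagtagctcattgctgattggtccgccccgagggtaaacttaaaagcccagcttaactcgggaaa
Lamp1 chr8:13158911-13159210 (plus strand): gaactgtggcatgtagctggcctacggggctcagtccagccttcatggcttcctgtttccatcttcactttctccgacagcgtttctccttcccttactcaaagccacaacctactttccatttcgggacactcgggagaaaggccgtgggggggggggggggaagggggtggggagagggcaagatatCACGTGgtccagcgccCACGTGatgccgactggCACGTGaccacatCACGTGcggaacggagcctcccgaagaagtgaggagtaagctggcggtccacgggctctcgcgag
Arsb chr13:93771429-93771728 (plus strand): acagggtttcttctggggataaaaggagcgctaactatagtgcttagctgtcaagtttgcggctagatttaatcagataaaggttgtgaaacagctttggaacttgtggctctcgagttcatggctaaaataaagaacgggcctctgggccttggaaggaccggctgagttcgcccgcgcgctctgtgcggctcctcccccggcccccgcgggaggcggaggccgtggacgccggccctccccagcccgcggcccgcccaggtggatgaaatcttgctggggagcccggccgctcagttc
*Lamp1* held 4 E-boxes, at 61, 45, 28 and 15 bases before the start. *Gla* held 2, at 227 and 194 bases before the start, both inside TCACGTGA. The *Arsb* window held none of the motifs searched. These 3 genes do not stand for the rest, as 20 of the 34 did not pass the test. Of the 12 genes that fell and had a window, only *Gla* and *Lamp1* held CACGTG.

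In all, 30 of the 34 genes had an annotated upstream window (32 windows, with *Cln3* and *Psap* having 2 each), and *Npc1*, *Aga*, *Asah1* and *Galns* had no entry. CACGTG, which reads the same on both strands, stood in 9 of the 32 windows (28.1%), against 7.15% of all 32851 mouse windows of this length. The other 7 genes that held it are shown with 10 bases on either side of the E-box, which is in capitals, to show the letters around it. *Cln3* held 2, at 149 and 121 bases before 1 of its annotated starts, and its other start had none. *Mcoln1* also held 2, and the one shown is the nearer to the start.
Cln3 chr7:126583370-126583395 (minus strand): aaccctcaagCACGTGatggaaggct
Cln3 chr7:126583342-126583367 (minus strand): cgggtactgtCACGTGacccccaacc
Mcoln1 chr8:3500464-3500489 (plus strand): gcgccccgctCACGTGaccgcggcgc
Glb1 chr9:114401020-114401045 (plus strand): gcttctgagtCACGTGgcctacagag
Naglu chr11:101070011-101070036 (plus strand): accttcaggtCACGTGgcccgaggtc
Gaa chr11:119267813-119267838 (plus strand): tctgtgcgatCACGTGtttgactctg
Sgsh chr11:119355524-119355549 (minus strand): gcctgccgtgCACGTGaccgtgggga
Arsa chr15:89477425-89477450 (minus strand): aactcagtgtCACGTGttgtctgctc
Of these 9 genes, only *Gla* and *Lamp1* were among the 12 genes that fell and had a window. The longer TCACGTGA, which contains CACGTG, was found in *Cln3*, *Gla* and *Mcoln1*, and in 0.974% of all windows. The CLEAR element, here CACGTG with GT before it and AC after it, contains both and was found in *Cln3* (at 121 bases) and in 0.326% of all windows. TGANTCA, the AP-1 motif, stood in *Glb1*, *Neu1* and *Psap* (9.38% of the windows of these genes and 7.81% of all), and the Smad box GTCTAGAC stood in none, against 0.213% of all. Each motif was searched on both strands, and a match describes letters only.

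With GDF11, 13 of the 34 genes fell and *Arsb* rose, whereas 20 missed the threshold (limma on log2 signal, adjusted p under 0.05 over 23410 probe sets with a gene symbol). The 13 genes are 38.2% of the 34, against 8.64% of all tested probe sets that were lower, and against 15.1% of the probe sets brighter than the median, as all 34 were. The single rise is 2.94% of the 34, against 7.31% of all probe sets that were higher and 12.1% of the brighter ones. The background count of 1712 higher probe sets was 1129 without GDF11 array 1. The falls were shallow. Those of the 13 genes ran from 0.23 to 0.59 on the log2 scale, with a median log2 fold change of -0.38, and *Gla* alone reached the 1.5-fold limit (with unadjusted p under 0.01) that the study set, against 2.96% of all probe sets that were lower by it. No member was higher by that limit, against 2.06% of all.

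The median log2 fold change of the 34 genes was -0.17, beside 0.024 over all tested probe sets and -0.0027 over the brighter ones. In 21 genes (61.8%) every GDF11 array lay below every control array, against 16.5% of all probe sets and 27.8% of the brighter ones. In 5 genes (14.7%) every GDF11 array lay above every control array, against 16.4% and 24%, and in 8 the groups overlapped. Taken singly, GDF11 arrays 1, 2 and 3 had 22, 26 and 24 of the 34 genes below all 3 controls, and 5, 6 and 6 above. The matching shares of all probe sets on single arrays were not counted. The median member stood 0.16, 0.16 and 0.20 below the control mean on these arrays (log2), and within 0.016 of it on each control array. The exact permutation test over arrays cannot go below p = 0.1 with 3 against 3, and this was its value for each gene whose groups did not overlap.

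**Figure D1:**
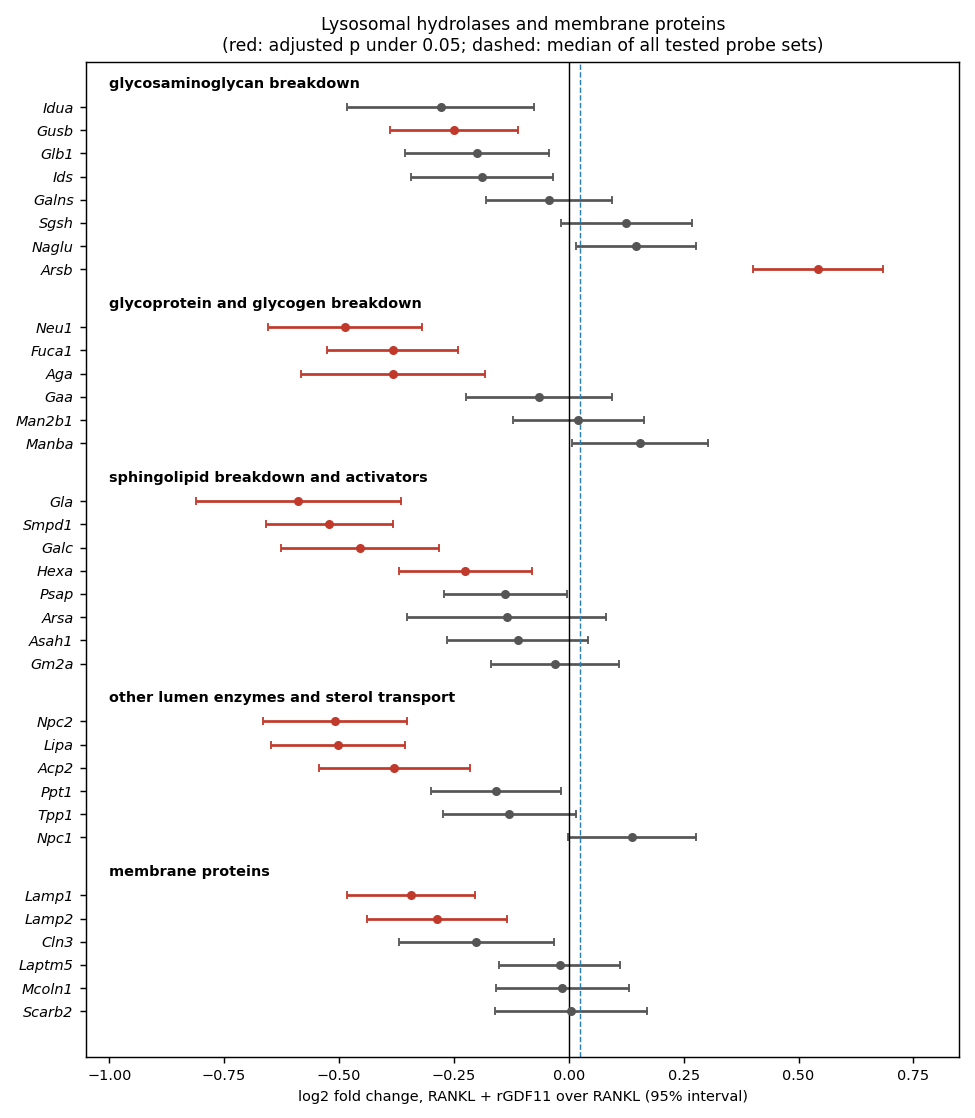
Log2 fold change with GDF11 against control for each of the 34 genes, grouped by role, with the 95% interval of limma (3 arrays per group). Red marks the 13 genes that fell and the 1 that rose at adjusted p under 0.05, and the dashed line is the median of all tested probe sets, 0.024. Most points of each role lie to the left of 0, and *Arsb* stands alone on the far right.

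Markers of cell types and stress moved as well. Beside the counts that follow, 8.64% of all probe sets were lower and 7.31% higher, and 15.1% and 12.1% of the brighter ones. Of 8 macrophage markers 4 fell (*Adgre1*, *Itgam*, *Fcgr1* and *Cd14*), with a summed level of 14.70 to 14.71 (log2) on control arrays and 14.44 to 14.52 on GDF11 arrays, and none was below the median probe set. Of 9 osteoclast markers 6 rose and *Mmp9* fell, with a summed level of 11.16 to 11.21 against 12.40 to 12.56. The other 2, *Oscar* and *Calcr*, were below the median probe set and did not pass. On neither list did the summed levels of the groups overlap, but no matching share over all probe sets was taken for summed levels. Neutrophil markers were summed at 9.58 to 9.76 against 10.14 to 10.37 (*S100a8* and *Ngp* rose, of 8), and stromal markers at 8.67 to 8.82 against 9.13 to 9.35 (*Col1a1*, *Col1a2* and *Alpl* rose, of 6). On each of these 2 lists 3 markers were below the median probe set. The rise of the neutrophil sum rests mainly on *Ngp*, the brightest of its 8 markers (8.28 in controls, 9.28 with GDF11). The 6 neutrophil markers besides *S100a8* and *Ngp* did not pass, and *Ly6g* (-0.22) and *Mpo* (-0.10) had negative log2 fold changes. B cell markers were summed at 8.12 to 8.28 against 7.43 to 7.62 (*Cd79b* fell, of 5). The other 4 B cell markers were below the median probe set and did not pass, so this sum rests mainly on *Cd79b*. All 6 T cell markers, all 5 mast cell and basophil markers, all 3 erythroid markers and all 4 endothelial markers were below the median probe set, although *Cd4* and *Kdr* fell and *Alas2* and *Pecam1* rose. Of 8 stress genes 7 fell and *Gadd45a* rose, with a summed level of 12.39 to 12.42 against 11.62 to 11.72. The part of these shifts in the lysosomal result was not tested.

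Among 8 genes of sphingolipid breakdown, 4 fell (*Gla*, *Smpd1*, *Galc* and *Hexa*), or 50.0%, beside 8.64% of all probe sets and 15.1% of the brighter ones. All 8 had a negative log2 fold change (median -0.18), as had 10212 of all 23410 tested probe sets and 5915 of the 11705 brighter ones. *Gla* encodes α-galactosidase A, which removes the terminal galactose of globotriaosylceramide. Its log2 signal was 10.98, 10.95 and 10.74 on the control arrays and 10.43, 10.31 and 10.16 on the GDF11 arrays. The groups did not overlap, although each spread over more than 0.2. The level fell by 33.5% (log2 fold change -0.59, SE 0.10, 95% interval -0.81 to -0.36, adjusted p = 0.00499). *Gla* lay at the study's fold limit and missed it without control array 1, control array 2 or GDF11 array 3.

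*Smpd1* encodes acid sphingomyelinase, which turns sphingomyelin into ceramide. It read 9.89, 9.96 and 9.89 in controls and 9.40, 9.37 and 9.42 with GDF11. Both groups were tight, and the gap between them was several times the spread (1.43-fold lower, log2 fold change -0.52, SE 0.06, adjusted p = 0.000832). *Galc* encodes galactosylceramidase, the enzyme deficient in Krabbe disease. It read 9.20, 9.38 and 9.28 in controls and 8.89, 8.87 and 8.74 with GDF11 (1.37-fold lower, adjusted p = 0.00486). *Hexa* encodes the α-subunit of β-hexosaminidase, which trims GM2 ganglioside, and its groups were close. It read 11.53, 11.48 and 11.55 in controls and 11.33, 11.23 and 11.31 with GDF11 (1.17-fold lower, adjusted p = 0.0466). Leaving out any of the 6 arrays took *Hexa* past the threshold, to adjusted p of 0.0814 to 0.132.

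The other 4 did not pass. *Psap*, the precursor of the saposins that present lipids to these enzymes, was 13.28 ± 0.03 (mean ± SD, n = 3) in controls and 13.14 ± 0.03 with GDF11, without overlap (log2 fold change -0.14, adjusted p = 0.172). *Asah1* (acid ceramidase) was also without overlap, at -0.11 (adjusted p = 0.341). The groups overlapped for *Arsa* (arylsulfatase A, -0.14) and for *Gm2a*, the GM2 activator (-0.03). *Psap* passed under 3 other settings, among them the test restricted to brighter probe sets.

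Of 6 genes for other enzymes of the lumen and for sterol transport, 3 fell (*Lipa*, *Npc2* and *Acp2*) and 0 rose by limma at the adjusted threshold. At an unadjusted p under 0.05, 4 were lower and 0 higher, beside 3208 and 3178 of all 23410 probe sets. The 3 falls are 50.0% of the 6, beside 8.64% of all probe sets and 15.1% of the brighter ones. Rises made up 7.31% and 12.1% of that background. *Lipa* encodes lysosomal acid lipase, which frees cholesterol and fatty acids from cholesteryl esters and triglycerides. It read 12.73, 12.81 and 12.76 in controls and 12.32, 12.20 and 12.27 with GDF11 (1.42-fold lower, SE 0.06 log2, adjusted p = 0.00133). *Npc2* encodes the soluble protein that hands this cholesterol to NPC1 in the lysosomal membrane. It read 11.43, 11.30 and 11.35 in controls and 10.83, 10.81 and 10.92 with GDF11 (1.42-fold lower, adjusted p = 0.00176). For both genes the distance between groups was far wider than the spread within either. *Acp2* encodes lysosomal acid phosphatase, and it read 10.04, 10.08 and 10.07 in controls and 9.71, 9.78 and 9.57 with GDF11 (1.30-fold lower, adjusted p = 0.00918).

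*Npc1* had the opposite sign. It read 11.77, 11.79 and 11.85 in controls and 11.97, 11.91 and 11.94 with GDF11, with every GDF11 array above every control (log2 fold change 0.14, 95% interval -0.00071 to 0.28, adjusted p = 0.185). *Ppt1* (palmitoyl-protein thioesterase) and *Tpp1* (tripeptidyl peptidase), each deficient in a neuronal ceroid lipofuscinosis, were at -0.16 (adjusted p = 0.139) and -0.13 (adjusted p = 0.237), both without overlap and both short of the threshold.

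**Figure D2:**
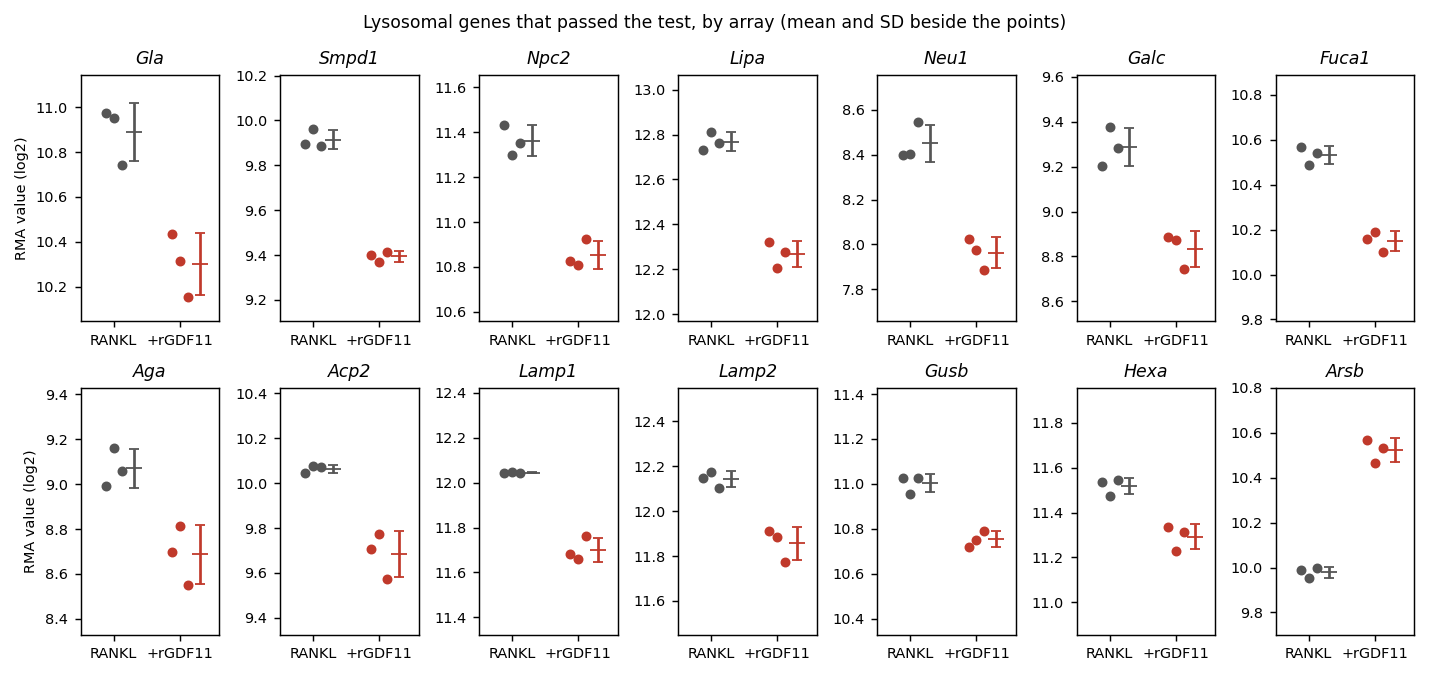
Log2 signal on each of the 3 control and 3 GDF11 arrays for the 14 genes that passed the test, with the mean and SD of each group beside the points (RANKL is the control, +rGDF11 the treated group). In each of the 14 panels the groups do not overlap, and *Arsb* is the one gene with the GDF11 arrays on top.

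Among 6 enzymes of glycoprotein and glycogen breakdown, 3 fell (*Neu1*, *Fuca1* and *Aga*), or 50.0%, beside 8.64% of all probe sets and 15.1% of the brighter ones. *Neu1* encodes the sialidase that takes sialic acid from glycoproteins and glycolipids. It read 8.40, 8.40 and 8.55 in controls and 8.03, 7.98 and 7.89 with GDF11 (1.40-fold lower, log2 fold change -0.49, adjusted p = 0.00298). *Fuca1* encodes α-fucosidase, and it read 10.57, 10.49 and 10.54 against 10.16, 10.19 and 10.10 (1.30-fold lower, adjusted p = 0.00443). *Aga* encodes aspartylglucosaminidase, which cuts the link between asparagine and the sugar chain. It read 8.99, 9.16 and 9.06 against 8.70, 8.81 and 8.55 (1.30-fold lower, adjusted p = 0.0208). The spread of *Aga* was wider, and its call was lost without control array 2, control array 3, GDF11 array 1 or GDF11 array 3 (adjusted p up to 0.0709). The mannosidase genes *Man2b1* and *Manba* had log2 fold changes of 0.02 (adjusted p = 0.874) and 0.15 (adjusted p = 0.165, groups without overlap). *Gaa*, which encodes the acid α-glucosidase that degrades glycogen and is deficient in Pompe disease, was at -0.06 (adjusted p = 0.619).

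The 8 genes of glycosaminoglycan breakdown were divided: *Gusb* fell, *Arsb* rose and 6 did not pass, with a median log2 fold change of -0.12. The 1 fall and the 1 rise are each 12.5% of the 8. This is close to the brighter probe sets (15.1% lower and 12.1% higher), beside 8.64% and 7.31% of all. *Arsb* encodes arylsulfatase B, which removes the 4-sulfate of dermatan and chondroitin sulfate, the latter the main glycosaminoglycan of cartilage and bone. It read 9.99, 9.95 and 10.00 in controls and 10.57, 10.46 and 10.53 with GDF11. All GDF11 arrays were clear of all controls (1.46-fold higher, log2 fold change 0.54, SE 0.06, 95% interval 0.40 to 0.68, adjusted p = 0.000788). A second probe set for *Arsb*, the one gene of the 34 with more than 1, was also higher (log2 fold change 0.41, adjusted p = 0.00576).

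*Gusb* encodes β-glucuronidase, and it read 11.03, 10.96 and 11.02 in controls and 10.72, 10.75 and 10.79 with GDF11 (1.19-fold lower, adjusted p = 0.0273). Its groups did not overlap, but the call was lost on leaving out any of the 6 arrays (adjusted p 0.0517 to 0.105). *Idua*, *Glb1* and *Ids*, for α-iduronidase, β-galactosidase and iduronate 2-sulfatase, lay below the controls on every GDF11 array without passing. Their log2 fold changes were -0.28 (adjusted p = 0.0745), -0.20 (adjusted p = 0.0946) and -0.19 (adjusted p = 0.104). *Naglu* and *Sgsh* lay above the controls on every GDF11 array, at 0.15 (adjusted p = 0.139) and 0.12 (adjusted p = 0.244). *Galns*, for the galactosamine 6-sulfatase, was at -0.04 (adjusted p = 0.710).

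Of 6 membrane proteins, only *Lamp1* and *Lamp2* fell (33.3%, beside 8.64% of all probe sets and 15.1% of the brighter ones). *Lamp1* and *Lamp2* encode the heavily glycosylated proteins that line the inner face of the lysosomal membrane. *Lamp1* read 12.04, 12.05 and 12.04 in controls and 11.68, 11.66 and 11.76 with GDF11 (1.27-fold lower, log2 fold change -0.34, adjusted p = 0.00676). *Lamp2* read 12.15, 12.18 and 12.11 in controls and 11.91, 11.88 and 11.77 with GDF11 (1.22-fold lower, log2 fold change -0.29, adjusted p = 0.0217). Neither gene had overlapping groups. *Lamp2* lost its call without any 1 of the control arrays or without GDF11 array 3 (adjusted p up to 0.0739).

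The other 4 membrane proteins did not pass. *Scarb2* (LIMP-2, an abundant protein of the lysosomal membrane) had a log2 fold change of 0.0047, with a 95% interval of -0.16 to 0.17. *Laptm5*, a membrane protein of blood cells, had one of -0.019 (95% interval -0.15 to 0.11). *Mcoln1*, the calcium channel mucolipin-1, was at -0.014 (adjusted p = 0.921). *Cln3*, whose product is lost in juvenile Batten disease, was at -0.20 with no overlap (adjusted p = 0.114). Falls of the size of *Lamp1* lie outside the first 2 of these intervals, each of which covers a single gene.

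Several of these proteins work as pairs, and the difference between the genes of a pair was taken within each array, so that only its shift between groups was compared. The 6 pairs were chosen after their values had been seen. *Npc2* minus *Npc1* was -0.34, -0.49 and -0.50 on control arrays and -1.15, -1.10 and -1.02 on GDF11 arrays (log2). The groups did not overlap, and their means differed by 0.65 on the log2 scale, although *Npc1* itself did not pass. *Arsb* minus *Arsa* went the other way, from 2.73 ± 0.18 to 3.41 ± 0.08 (SD, n = 3), a difference of 0.68. These arylsulfatases stand in different role groups and are not a working pair. *Smpd1* minus *Asah1*, the enzymes that make and degrade ceramide, differed between the group means by -0.41, *Galc* minus *Psap* by -0.32 and *Hexa* minus *Gm2a* by -0.19, each without overlap. *Lamp1* minus *Lamp2* differed by -0.056, with overlap. These are descriptions and carry no test, since the pairs were picked for their values.

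**Figure D3:**
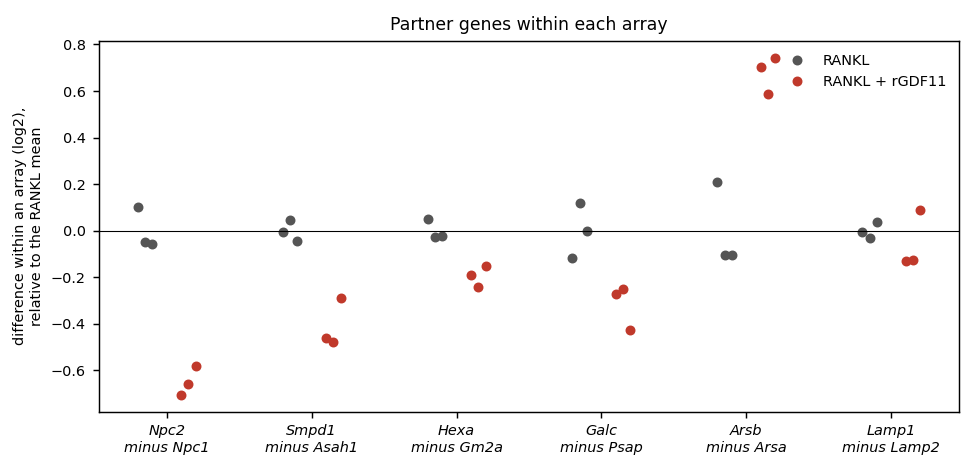
Difference in log2 signal between the genes of each of 6 pairs, within each array, drawn relative to the control mean of the pair, for the 3 control (grey) and 3 GDF11 (red) arrays. The groups are apart for every pair but *Lamp1* minus *Lamp2*, with *Npc2* minus *Npc1* lower by a mean of 0.65 and *Arsb* minus *Arsa* higher by 0.68. *Arsb* and *Arsa* stand in different role groups and are not a working pair.

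A wider list of lysosomal genes, none of them among the 34, gave 30 lower, 6 higher and 50 that did not pass, of 86 measured out of 95 listed, with a median log2 fold change of -0.13. The lower genes are 34.9% of the 86, against 8.64% of all probe sets and 15.1% of the brighter ones, and the higher genes 6.98%, no more than the 7.31% and 12.1% of the background. Of 18 other enzymes and proteins of the lumen 8 fell (44.4%) and 1 rose (5.56%), with a median of -0.22. The largest falls were in *Scpep1*, a serine carboxypeptidase (log2 fold change -0.62, adjusted p = 0.000306), *Naaa*, an acid amidase (-0.61), *Pla2g15*, the lysosomal phospholipase A2 (-0.52), and *Smpdl3a*, a relative of *Smpd1* (-0.52). The rise was *Acp5*, the tartrate-resistant acid phosphatase that marks osteoclasts. It read 8.77, 8.72 and 8.83 in controls and 10.55, 10.58 and 10.79 with GDF11 (log2 fold change 1.87, adjusted p = 1.27e-05). *Acp2*, the acid phosphatase among the 34, had fallen by 0.38 on the same scale.

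Of 28 other membrane proteins 10 fell (35.7%) and 4 rose (14.3%, beside 7.31% of all probe sets and 12.1% of the brighter ones), with a median of -0.12. The share of rises is thus close to that of the brighter probe sets. The mucolipin genes went different ways: *Mcoln2* fell (log2 fold change -1.13, adjusted p = 5.02e-05), *Mcoln3* rose (0.61, adjusted p = 0.000993) and *Mcoln1*, as above, was at -0.014. *Clcn7*, the chloride and proton exchanger that osteoclasts need to acidify bone, fell (-0.51), as did the calcium channel gene *Tpcn2* (-0.43) and *Laptm4b* (-0.34). The nucleoside transporter gene *Slc29a3* rose by 0.85, while *Gpr137b* (0.30) and the lipid transporter gene *Abca2* (0.27) rose less. The macrophage glycoprotein gene *Cd68* fell (-0.28, adjusted p = 0.0145), and the tetraspanin gene *Cd63* did not pass (0.07, adjusted p = 0.598). The call of *Gpr137b* was lost without any array but control array 2, that of *Abca2* without any but control array 3, that of *Cd68* without control array 3 or GDF11 array 1, and that of *Laptm4b* without GDF11 array 1. Without GDF11 array 1, 6 of the 28 fell and 2 rose.

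Of 19 genes for enzyme maturation and delivery 4 fell (21.1%, beside 8.64% of all probe sets and 15.1% of the brighter ones) and 1 rose (5.26%, beside 7.31% and 12.1%), with a median of -0.12. With the test restricted to brighter probe sets 8 were lower and 2 higher. The 15.1% and 12.1% come from the unrestricted test, and the shares of all probe sets in the restricted one are not given here. *Gnptab*, which encodes the transferase that starts the mannose 6-phosphate tag, read 10.31, 10.38 and 10.38 in controls and 10.98, 11.01 and 10.93 with GDF11 (log2 fold change 0.62, adjusted p = 0.000384). *Igf2r*, which encodes the large receptor for that tag, read 10.02, 10.16 and 10.16 against 9.54, 9.38 and 9.50 (log2 fold change -0.64, adjusted p = 0.000852). *Gnptab* and *Igf2r* thus moved in opposite directions. *Gnptg*, for another subunit of the same transferase, did not pass (-0.19, adjusted p = 0.189). The small receptor gene *M6pr* was not analysed here. *Cln8*, for a cargo receptor of the endoplasmic reticulum (-0.39), *Vps35*, a retromer subunit that returns receptors to the Golgi (-0.32), and *Sumf1*, which activates sulfatases (-0.23), also fell. *Sumf1* lost its call on leaving out any of the 6 arrays and *Vps35* without control array 1, control array 2, GDF11 array 1 or GDF11 array 3, so that 2 or 3 of the 19 were lower with 5 arrays.

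The MiT/TFE factors, which bind the E-box of lysosomal genes, were read with the proteins that control them. Of these 21 genes 8 fell (38.1%, beside 8.64% of all probe sets and 15.1% of the brighter ones) and 0 rose by limma at the adjusted threshold (beside 7.31% and 12.1%), with a median of -0.14, and 2 were higher at an unadjusted p under 0.05. *Tfec* read 9.93, 9.93 and 9.88 in controls and 9.37, 9.46 and 9.26 with GDF11 (log2 fold change -0.55, adjusted p = 0.00155). *Tfeb* (-0.16, 95% interval -0.35 to 0.03, adjusted p = 0.258) and *Tfe3* (-0.09, adjusted p = 0.387) did not pass. *Mitf* had the opposite sign (0.23, adjusted p = 0.0516), and it passed under 4 other settings, such as the test restricted to brighter probe sets. The genes for the Rag GTPases, which hold these factors and mTORC1 at the lysosome, fell in 3 cases: *Rragc* (-0.54), *Rragd* (-0.45) and *Rraga* (-0.42). With any 1 array left out, 4 or 5 of the 21 were lower.

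**Figure D4:**
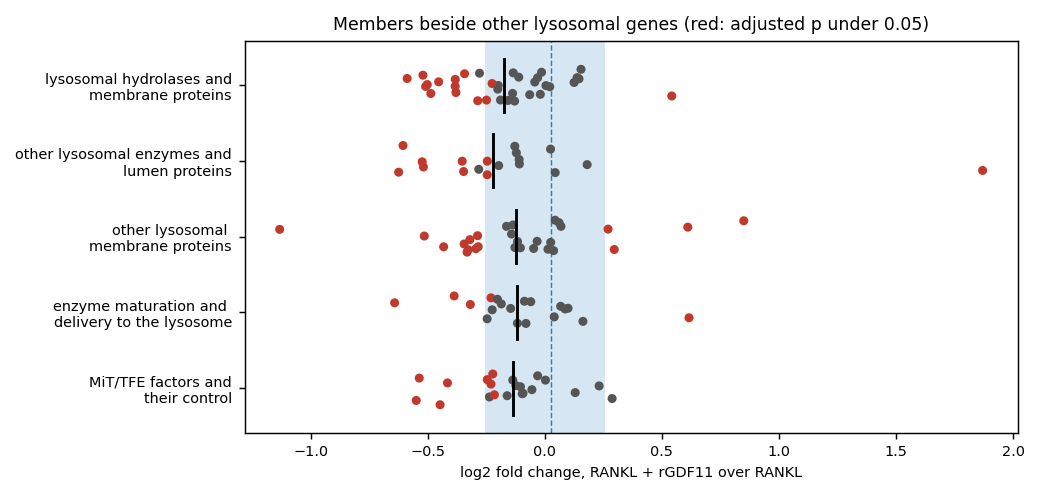
Log2 fold change with GDF11 of the 34 genes (top row) and of every measured gene in the 4 further lysosomal lists, red where adjusted p was under 0.05, with the median of each list as a bar, and the 10th to 90th percentile (-0.25 to 0.25) and the median of all tested probe sets as a band and a dashed line. All 5 bars lie below 0, from -0.22 to -0.12, and single genes such as *Acp5*, *Slc29a3* and *Mcoln2* lie far from their list.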

How the data were processed

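The deposited value table holds log2 signal for 35556 probe sets on 6 Mouse Gene 1.0 ST arrays (Affymetrix), made by the authors with robust multi-array averaging (RMA), which subtracts background, quantile-normalises the arrays and summarises probes, so a change shared by all genes is not visible. The submitters' processing notes name Transcriptome Analysis Console 3.0. By platform annotation 21789 probe sets had a single symbol, 1621 had several and 12146 had no symbol. The 23410 named ones were tested with limma 3.58.1 in R 4.3.3 (two-sided, Benjamini-Hochberg, no level filter and no covariate), a step tested on simulated data. Array medians ran from 6.11 to 6.18, and arrays correlated at 0.997 to 0.998 within groups and 0.989 to 0.991 between them. Array number limits the precision. Apart from the pairs, the summed markers and the split at the median level, levels of different probe sets were not compared. The 95% intervals are for single genes and unadjusted. Exact permutation tests (two-sided) used SciPy 1.17.1.

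Groups came from the sample labels. All 34 genes are named; of the other lists, up to 4 genes per direction with the largest change among those that passed, plus *Tfeb*, *Tfe3*, *Mitf*, *Tfec*, *Gnptab*, *M6pr*, *Igf2r*, *Cd63* and *Cd68*. *Gnptg*, *Arsg* and *Sumf2* fall outside this rule and were named after their values were seen. Members and lists were chosen with earlier results of these data known. Summed marker levels add linear signals. Alternatives changed the rows tested, the level filter, the normalisation, the variance model, the test, the replicate block, the probe set of a gene, the thresholds and the arrays included. Promoter windows came from RefSeq. Some listed genes are not reported here.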

Additional observations from a re-analysis of the deposited data

How the results depend on the processing

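Under 18 alternative settings, 10 of the 14 called genes kept their call: *Arsb*, *Neu1*, *Fuca1*, *Gla*, *Galc*, *Smpd1*, *Lipa*, *Acp2*, *Npc2* and *Lamp1*. *Gusb*, *Hexa*, *Aga* and *Lamp2* lost theirs under some, and *Glb1*, *Idua*, *Ids*, *Naglu*, *Psap*, *Ppt1*, *Npc1* and *Cln3*, which were not called, passed under some. The settings that changed the probe set of a gene could alter the log2 fold change of *Arsb* alone among the 34. Leaving out 1 array gave 9 to 11 lower and 1 higher among the 34, 0 to 1 lower by the 1.5-fold limit, a median of -0.20 to -0.16, and 1415 to 1725 lower and 1129 (without GDF11 array 1) to 1357 higher of all probe sets. In the further lists it gave 6 to 7 lower and 1 higher for lumen proteins, 6 to 9 lower and 2 to 3 higher for membrane proteins, 2 to 3 lower and 1 higher for delivery, and 4 to 5 lower and 0 to 1 higher for MiT/TFE. For the settings that follow, shares of all probe sets are not given here, so the counts have no matching background. The 15.1% and 12.1% of the brighter probe sets come from the test of all 23410. Of the 34, 19 were lower and 2 higher with only probe sets above the median level or with an intensity trend, 2 were higher by the methods' t-test, and the median was -0.14 after a further quantile normalisation. By the study's fold limit 0 were lower after that normalisation or at 2-fold, and at 1.2-fold 11 were lower and 1 higher. The 1.2-fold limit admits more of all probe sets too, and that share is not given here. Membrane proteins had 2 higher with all rows or median centring. MiT/TFE had 4 lower with all rows and 5 with quantile normalisation, centring or the block, and 2 higher above the median level, with quantile normalisation or with the trend, and 1 above log2 5 or with the block. Lumen proteins had 2 higher above the median level. Delivery had 2 higher above the median level or with the trend, and 8 lower above the median level and 7 above log2 5 or with the trend. Signs turned for *Gm2a* (0.0019), *Mcoln1* (0.029) and *Laptm5* (0.032) with quantile normalisation and for *Scarb2* (-0.010) with centring, and with 1 array left out *Scarb2* ran from -0.033 to 0.055, *Man2b1* from -0.010 to 0.048 and *Mcoln1* from -0.047 to 0.013. The cause was not tested. Arrays of the same number share only that number (correlations of deviations 0.064, 0.33 and -0.00083, and not every array correlated best with its own number), and with the replicate number as a block 12 of the 34 were lower, *Hexa* losing its call, and 1 was higher.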

Other observations

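Sulfatases share the activating enzyme that *Sumf1* encodes, which fell by 0.23 on the log2 scale. Their own genes did not share a direction. *Arsb* rose (0.54), while *Ids* (-0.19), *Arsa* (-0.14), *Galns* (-0.04), *Arsg* (0.04, adjusted p = 0.812) and *Sgsh* (0.12) did not pass. *Sumf2*, a relative of *Sumf1* without its activity, was at -0.12 (adjusted p = 0.298). These genes were grouped after their values had been seen.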
